A study of Mus musculus with 18 samples.

Results

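The genes described here build the outer layers of squamous epithelium such as epidermis. They were chosen by symbol: 21 listed genes and every gene whose symbol begins with Sprr (14 genes), Lce1 (14 genes) or Lce3 (6 genes), without pseudogenes, which gave 55 of the 55450 genes in the deposited tables. Sprr2c-ps, Sprr2g (annotated as a polymorphic pseudogene) and Sprr2j-ps were left out for that reason. RNA was sequenced from 18 spontaneous mammary gland tumors of untreated mice, each tumor taken from its own animal per the series design. All 18 mice were positive for MMTV-Cre, in which the mouse mammary tumor virus promoter drives Cre recombinase mainly in mammary epithelium, and all were heterozygous for the activating H1047R allele of Pik3ca, which the labels spell Pikca. They differed in the label of Cbfb, the gene of the RUNX transcription factors' partner subunit: 14 tumors were Cbfb(het), 3 were Cbfb(wt) and 1 was Cbfb(homo). Hence there was no tumor without Cre or without the Pik3ca allele, and the single Cbfb(homo) tumor had no replicate. The labels give no age, litter or batch, and do not say what the altered Cbfb allele is. Tumors are numbered within each label.

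In stratified epithelium, keratinocytes divide in a basal layer, leave it, and mature as they move outward. Spinous cells replace the basal keratins with Krt1 and Krt10, and the outermost cells assemble a cornified envelope by cross-linking small proteins with transglutaminases beneath the plasma membrane. Wounded or hyperproliferative epithelium instead makes Krt6a, Krt6b and Krt16. Normal mammary ducts hold luminal and basal cells and do not cornify, whereas squamous differentiation is a known feature of some mammary tumors. The 55 genes were grouped by this order into 5 early genes (Krt6a, Krt6b, Krt16, Dsg3, Dsc3), 9 spinous genes (Krt1, Krt10, Dsg1a, Dsc1, Krtdap, Sbsn, Calml3, Ivl, Tgm1) and 41 cornified genes (Lor, Flg, Tgm3, Klk5, Klk7, Cdsn, Casp14 and the Sprr, Lce1 and Lce3 families). "Early" here means the stress keratins and the desmosomal cadherins of the lower layers.

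Of the 55 genes, 37 lie in the epidermal differentiation complex, a gene cluster on chromosome 3. These 37 members span 1.21 Mb, from Lor at 92080271 to Flg at 93293686 in GRCm38. Sequence upstream of the start was at hand for 45 of the 55, as RefSeq windows (GRCm38.p6) of 250 bases before to 50 bases after the start. The AP-1 motif, TGANTCA, which reads the same way on both strands apart from its middle base, occurred in 14 of 47 member windows (29.8%), against 7.81% of all 32851 windows. By family, 9 of 14 Sprr windows (64.3%) held it, and 0 of 13 Lce1 and 0 of 6 Lce3 windows. With so few Lce windows, 0 is not far from the 7.81% of all windows. Most of the Sprr matches lie at nearly the same place in neighboring Sprr2 genes, so they are not separate counts. The Sprr genes without it were Sprr2a1, Sprr2a2, Sprr2a3, Sprr3 and Sprr4. Absence depends on where the start is annotated, and other starts were not tested. The Sprr2a1 and Sprr2a2 windows have the same sequence. Neither they nor the Sprr2a3 and Sprr4 windows hold the TATA motif TATAAA, which 10 of 14 Sprr windows hold. The Grainyhead motif AACCNGTT, searched on both strands, was in 0 of 47 member windows and in 2.09% of all windows. A match describes letters in these windows and does not show that a factor binds there.

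The 200 bases before the start are printed 5′ to 3′ for 6 genes, with AP-1 matches in capitals. Sprr1a, Sprr2d, Ivl and Krtdap are shown as members that carry the motif, and Sprr3 and Lce3c as members without it. The regions are chr3:92485882-92486081 (minus strand) for Sprr1a, chr3:92338940-92339139 (plus strand) for Sprr2d, chr3:92573736-92573935 (minus strand) for Ivl, chr7:30787705-30787904 (plus strand) for Krtdap, chr3:92458721-92458920 (minus strand) for Sprr3 and chr3:92944286-92944485 (plus strand) for Lce3c.
Sprr1a: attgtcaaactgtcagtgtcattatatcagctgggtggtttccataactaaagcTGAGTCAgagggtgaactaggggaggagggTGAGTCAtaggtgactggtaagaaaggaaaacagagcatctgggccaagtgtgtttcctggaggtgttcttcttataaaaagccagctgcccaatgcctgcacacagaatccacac
Sprr2d: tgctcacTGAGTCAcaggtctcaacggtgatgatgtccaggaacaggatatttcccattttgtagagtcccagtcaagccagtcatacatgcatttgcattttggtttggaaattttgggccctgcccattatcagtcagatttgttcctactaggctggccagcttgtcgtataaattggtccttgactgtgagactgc
Ivl: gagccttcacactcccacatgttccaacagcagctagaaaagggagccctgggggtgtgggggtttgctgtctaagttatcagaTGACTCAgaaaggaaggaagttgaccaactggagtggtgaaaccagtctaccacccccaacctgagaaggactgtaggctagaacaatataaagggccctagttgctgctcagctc
Krtdap: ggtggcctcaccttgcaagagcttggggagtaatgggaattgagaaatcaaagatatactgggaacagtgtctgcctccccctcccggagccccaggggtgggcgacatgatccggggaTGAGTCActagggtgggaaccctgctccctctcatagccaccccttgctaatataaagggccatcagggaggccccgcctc
Sprr3: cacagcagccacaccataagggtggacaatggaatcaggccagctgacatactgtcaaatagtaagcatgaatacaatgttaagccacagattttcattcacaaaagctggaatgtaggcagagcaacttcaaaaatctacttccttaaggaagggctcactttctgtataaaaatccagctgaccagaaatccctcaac
Lce3c: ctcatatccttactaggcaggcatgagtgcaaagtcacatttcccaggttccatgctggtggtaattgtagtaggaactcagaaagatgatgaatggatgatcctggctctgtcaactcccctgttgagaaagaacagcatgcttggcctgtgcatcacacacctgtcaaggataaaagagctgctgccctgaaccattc
In Sprr1a the matches began 146 and 116 bases before the start, and in Ivl and Krtdap 116 and 81 bases before it. Sprr2b, Sprr2d, Sprr2e, Sprr2f, Sprr2h and Sprr2i each carried TGAGTCA between 193 and 198 bases before the start, and Sprr2k carried it at 196 with TGACTCA at 182.

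Some features of the libraries bear on every value below. Library totals lay between 33210207 and 40974130 rounded expected counts. The libraries of Cbfb(het) 10 and 14 were nearly alike: over 14533 genes their counts gave a mean chi-square of 4.51 per gene (median 1), against 94.7 for the next closest pair, Cbfb(het) 2 and 8. This exceeds sampling noise on average, so they were kept as 2 tumors, and the comparison was also run with their mean as 1. Luminal mammary markers were present in most tumors, with 9 genes summing to 2740 to 6364 TPM in 13 tumors, but they were low in Cbfb(het) 10 and 14 (183 and 189 TPM) and Cbfb(wt) 2 (124 TPM), and stood at 802 and 1147 TPM in Cbfb(het) 1 and 12. TPM is a level scaled by gene length and to a fixed total within each tumor. Of that total, 7 milk genes took 219321, 206599, 180020 and 141036 TPM in Cbfb(het) 8, 2, 4 and 6. They took 98250 TPM in Cbfb(wt) 3 but 6.64 TPM in Cbfb(wt) 2. Where milk genes are high, less of the total is left for other genes. In bulk tumor RNA, a lower level can come from fewer squamous cells or from less RNA in each, and these cannot be told apart.

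The squamous program as a whole ranged from nearly absent to a few percent of the transcriptome. The 55 genes took 3.64% of all TPM in Cbfb(het) 11, 2.75% in Cbfb(het) 9, 2.33% in the Cbfb(homo) tumor and 2.30% in Cbfb(wt) 1. At the other end they took 0.00826% in Cbfb(het) 12, 0.0203% in Cbfb(het) 1 and 0.0557% in Cbfb(het) 4. High and low tumors thus occurred under the Cbfb(het) label, and the Cbfb(wt) tumors also spread widely, with 0.171% in Cbfb(wt) 2 and 0.633% in Cbfb(wt) 3. The median member had an SD of 2.44 over the 18 tumors on the log2(TPM + 1) scale, against 0.465 for the median of the 18475 genes tested. Of the 55 members, 53 varied more than the 95th percentile of all those genes (SD 1.43). The level reached 10 TPM in at least 1 tumor for 54 members, all but Sprr3.

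**Figure D1:**
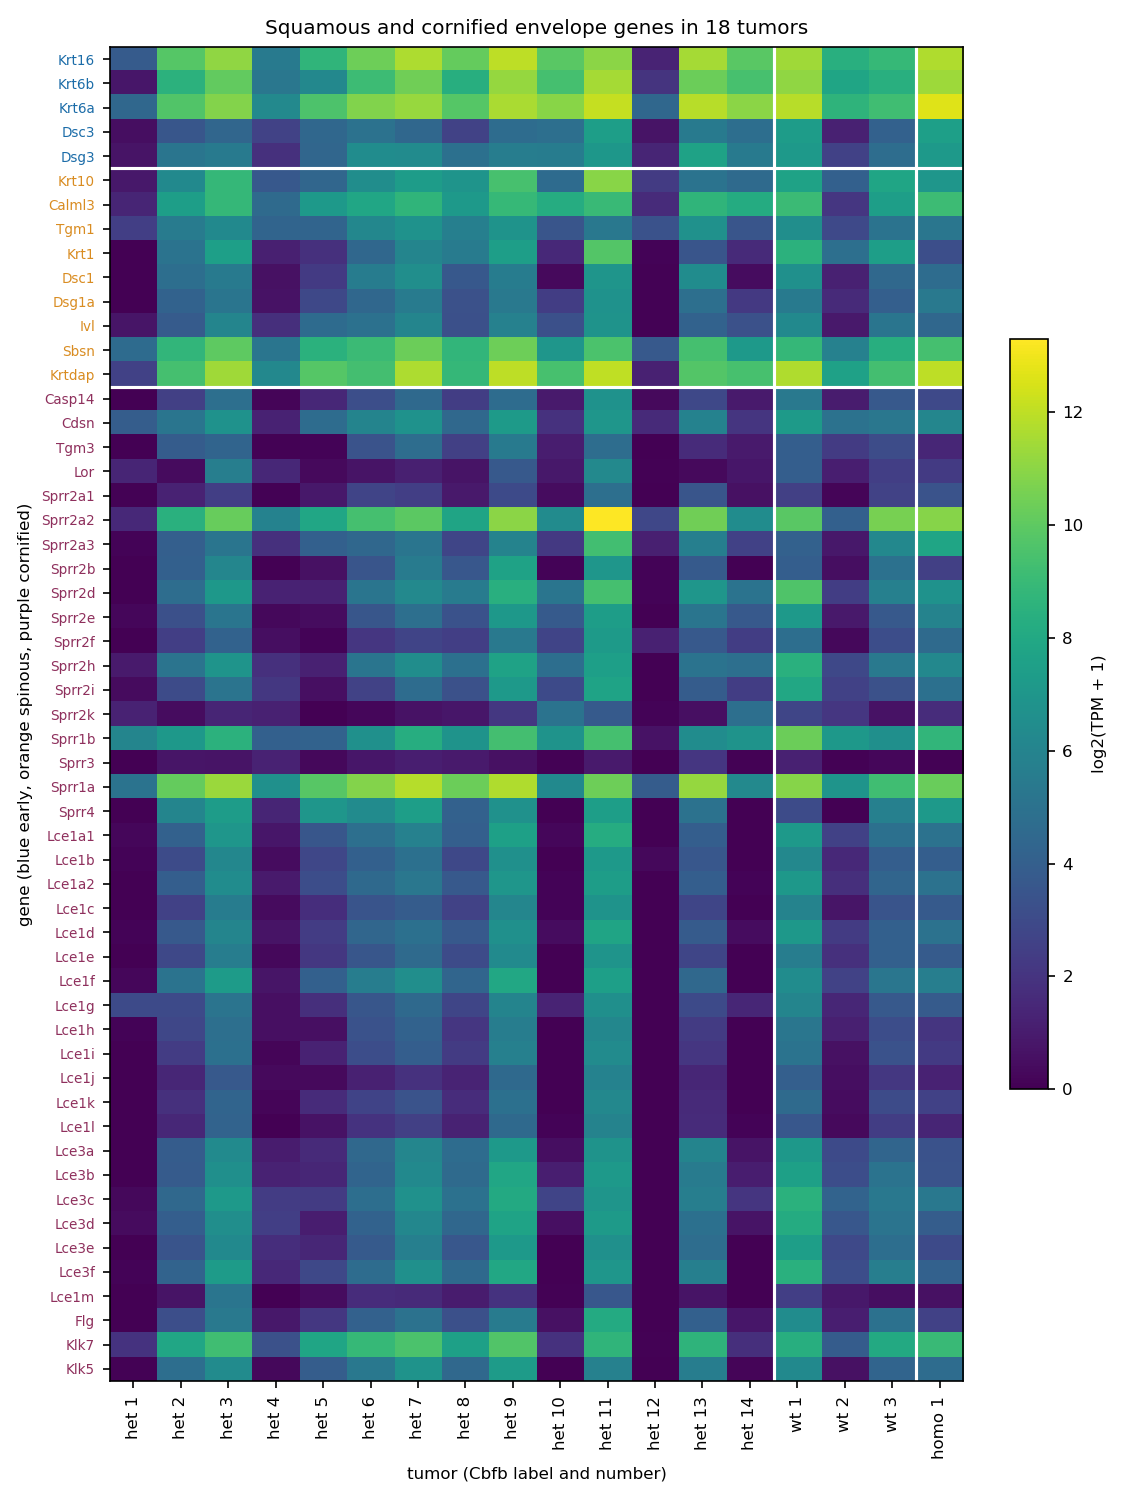
Heat map of the 55 genes (rows, ordered by stage) in the 18 tumors (columns), colored by log2(TPM + 1), with white lines between stages and between Cbfb labels. Columns Cbfb(het) 1 and 12 are dark for most genes, and Cbfb(het) 10 and 14 are bright for early genes and dark for most cornified ones.

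Early genes were at 1 TPM or more in 16 to 18 tumors each. Krt6a, a type II keratin of wounded and hyperproliferative epithelium (ENSMUSG00000058354.7, chromosome 15, 101689910 to 101694307, minus strand), stood at 20.4, 1799 and 4438 TPM (lowest, median and highest) in the Cbfb(het) tumors, at 3719, 406 and 596 TPM in Cbfb(wt) 1, 2 and 3, and at 6409 TPM in the Cbfb(homo) tumor. Its type I partner Krt16 ran from 1.5 TPM through a median of 1053 to 4011 TPM in Cbfb(het), with 2705, 330 and 481 TPM in Cbfb(wt) and 3359 TPM in Cbfb(homo). Both keratins were low in Cbfb(het) 1, 4 and 12 and the labels overlapped. Krt6b, a close relative of Krt6a, reached 2959 TPM in Cbfb(het) 11 and was at 0.73 TPM in Cbfb(het) 1. Reads of Krt6a, Krt6b and Krt16 can be split between similar genes, since 45.7%, 50.1% and 37.6% of their 50-base transcript windows occur in other genes too.

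Dsg3 and Dsc3 encode the desmosomal cadherins that join cells of the lower layers. Dsg3 stood at 0.64, 44.1 and 200 TPM (lowest, median and highest) in Cbfb(het), at 144, 5 and 26 TPM in Cbfb(wt) and at 138 TPM in Cbfb(homo). Dsc3 ran from 0.43 through 20.5 to 174 TPM in Cbfb(het), with 163, 1.37 and 16.8 TPM in Cbfb(wt) and 184 TPM in Cbfb(homo). Dsg3 was highest in Cbfb(het) 13, and Dsc3 stood far above the rest in the Cbfb(homo), Cbfb(het) 11 and Cbfb(wt) 1 tumors, where every other tumor was at 43.1 TPM or lower.

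Spinous genes were at 1 TPM or more in 13 to 18 tumors each. Krt1, the type II keratin of the first suprabasal cells (ENSMUSG00000046834.7, chromosome 15, 101845426 to 101850794, minus strand), stood at 0.00, 15.5 and 846 TPM in Cbfb(het) (lowest, median and highest), at 377, 28.1 and 172 TPM in Cbfb(wt) and at 8.05 TPM in Cbfb(homo). Krt10, its type I partner (ENSMUSG00000019761.10, chromosome 11, 99385254 to 99389364, minus strand), stood at 0.80, 55.4 and 1970 TPM in Cbfb(het), at 199, 15.8 and 226 TPM in Cbfb(wt) and at 127 TPM in Cbfb(homo). Both were highest in Cbfb(het) 11. The pair did not keep one ratio: Krt1 exceeded Krt10 in Cbfb(wt) 1 and 2 (1.90 and 1.78 times its TPM), was at 0.76 times in Cbfb(wt) 3 and at 0.43 times or less in every other tumor where both reached measurable levels. In the Cbfb(homo) tumor, which had the highest Krt6a, the Krt1 level was 0.0633 times that of Krt10 and 0.00126 times that of Krt6a.

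Dsg1a and Dsc1 replace Dsg3 and Dsc3 as cells move outward. Dsg1a stood at 0.02, 13 and 107 TPM in Cbfb(het), at 44.1, 2.02 and 15.1 TPM in Cbfb(wt) and at 40.0 TPM in Cbfb(homo), and 35% of its windows also occur in other genes, Dsg1b and Dsg1c among them. Dsc1 stood at 0.00, 19.2 and 122 TPM in Cbfb(het), at 102, 1.36 and 21.9 TPM in Cbfb(wt) and at 25.3 TPM in Cbfb(homo). The switch within the Dsc pair was uneven: Dsc1 was 4.62 times Dsc3 in Cbfb(het) 7 and 2.49 times in Cbfb(het) 2, but 0.00981 and 0.0131 times in Cbfb(het) 10 and 14.

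The secreted and cytoplasmic spinous proteins were abundant. Krtdap, a small secreted protein of differentiating keratinocytes, ran from 1.31 through 687 to 4207 TPM in Cbfb(het), with 3374, 195 and 639 TPM in Cbfb(wt) and 3999 TPM in Cbfb(homo). Sbsn, or suprabasin, which shares 7% of its windows with Tmem147os, ran from 12 through 425 to 1297 TPM in Cbfb(het), with 460, 57.5 and 320 TPM in Cbfb(wt) and 662 TPM in Cbfb(homo). Calml3, a calmodulin-like protein of epithelium, reached 559 TPM in Cbfb(homo), 544 TPM in Cbfb(wt) 1 and 525 TPM in Cbfb(het) 11, and was at 3.28 TPM in Cbfb(wt) 2. These genes were at 1 TPM or more in all 18 tumors, as were Krt6a, Krt16, Tgm1, Cdsn, Sprr1a and Sprr2a2.

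Ivl and Tgm1 start the envelope: involucrin is an early scaffold and transglutaminase 1 the membrane-bound enzyme that cross-links it. Ivl stood at 0.06, 15.0 and 112 TPM in Cbfb(het), at 79.9, 0.89 and 34.8 TPM in Cbfb(wt) and at 20.8 TPM in Cbfb(homo). Tgm1 was the steadiest spinous gene, with an SD of 1.43 on the log2(TPM + 1) scale. It ran from 4.61 through 42.2 to 114 TPM in Cbfb(het), with 93.3, 6.60 and 32.3 TPM in Cbfb(wt) and 36.4 TPM in Cbfb(homo). It overlapped between labels, as did every other member.

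**Figure D2:**
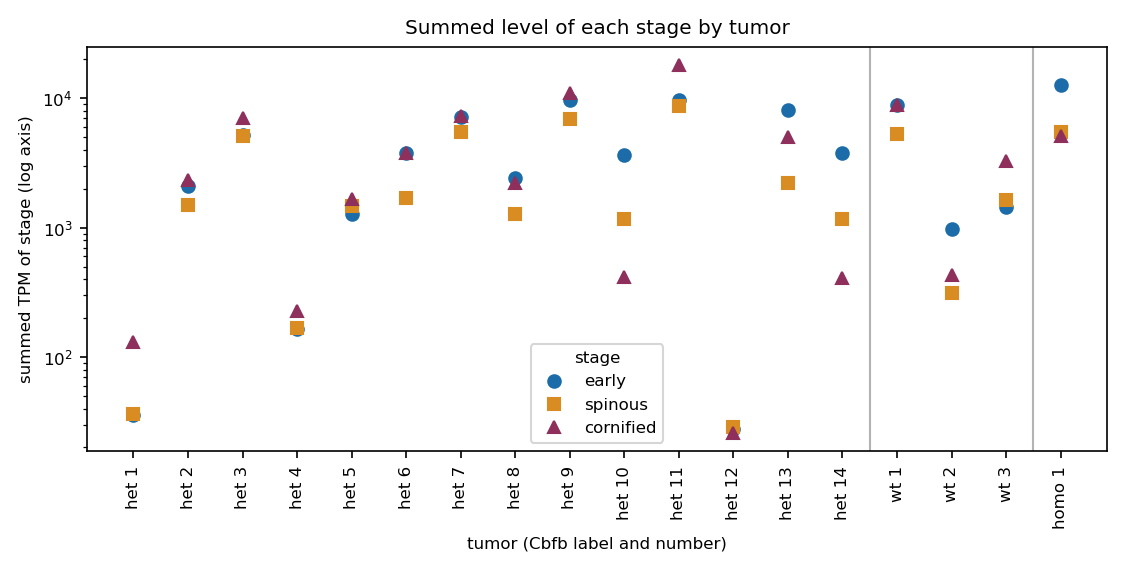
Summed TPM of the early, spinous and cornified genes (log axis) in each of the 18 tumors. In Cbfb(het) 10 and 14 the cornified sums are 418 and 408 TPM while the early sums are 3665 and 3759 TPM; in Cbfb(het) 11 the cornified sum is the highest of the 3.

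Cornified genes were at 1 TPM or more in 4 (Sprr3) to 18 tumors each. The 41 genes summed to 17952 TPM in Cbfb(het) 11, 10973 TPM in Cbfb(het) 9, 8854 TPM in Cbfb(wt) 1 and 7310 TPM in Cbfb(het) 7, and to 26.0 TPM in Cbfb(het) 12. The Cbfb(homo) tumor ranked the first of 18 in the early sum (12685 TPM), the fourth in the spinous sum and the sixth in the cornified sum (5128 TPM). Early genes made up 54.5% of its member TPM and cornified genes 22.0%. Lor (loricrin, the main envelope protein of epidermis) was low in most tumors, at 0.06, 0.79 and 74.6 TPM in Cbfb(het), 14.6, 1.16 and 4.63 TPM in Cbfb(wt) and 3.75 TPM in Cbfb(homo). Flg, or filaggrin, which bundles keratin filaments and yields moisturizing amino acids, stood at 0.00, 8.30 and 284 TPM in Cbfb(het), at 86.0, 1.18 and 30.1 TPM in Cbfb(wt) and at 4.92 TPM in Cbfb(homo). Both genes were highest in Cbfb(het) 11, but Lor was also high in Cbfb(het) 3, at 50 TPM against 40 TPM for Flg there.

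The enzymes of the outer layers followed their own order. Klk7, a peptidase that cleaves the joints between corneocytes (ENSMUSG00000030713.6, chromosome 7, 43811294 to 43816359, plus strand), ran from 0.06 through 231 to 826 TPM in Cbfb(het), with 326, 13.4 and 272 TPM in Cbfb(wt) and 509 TPM in Cbfb(homo). Klk5, which activates Klk7, was lower in every tumor and reached 156 TPM in Cbfb(het) 9, with 25.4 TPM in Cbfb(homo). Both peptidases were highest in Cbfb(het) 9. Cdsn, the corneodesmosome protein they cut, ran from 1.44 through 29.8 to 149 TPM in Cbfb(het), with 150, 30.8 and 37.4 TPM in Cbfb(wt) and 66.9 TPM in Cbfb(homo). Casp14, the caspase that processes filaggrin, and Tgm3, a later transglutaminase, were at modest levels, reaching 107 TPM in Cbfb(het) 11 and 42.8 TPM in Cbfb(het) 9. Their levels in the Cbfb(homo) tumor were 6.56 and 1.73 TPM.

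The Sprr family, small proline-rich cross-bridging proteins, was led by Sprr1a and Sprr2a2. Sprr1a stood at 13.8, 1205 and 3643 TPM in Cbfb(het), at 1911, 119 and 587 TPM in Cbfb(wt) and at 1230 TPM in Cbfb(homo). Sprr1b stood at 0.55, 113 and 671 TPM in Cbfb(het), at 1280, 137 and 97.0 TPM in Cbfb(wt) and at 424 TPM in Cbfb(homo). Sprr1b was below Sprr1a in 14 tumors, and above it in Cbfb(het) 1, 10 and 14 and Cbfb(wt) 2, at 2.01, 1.45, 1.55 and 1.15 times the TPM of Sprr1a. Sprr2a2 reached 10087 TPM in Cbfb(het) 11, against 2030 TPM in Cbfb(het) 9, the next highest. Sprr2a1 and Sprr2a2 overlap in the annotation and 96.3% and 96.5% of their windows are shared, as are 61.1% of Sprr2a3, so the sum of the 3 is firmer than their split: 10734 TPM in Cbfb(het) 11, 2099 TPM in Cbfb(homo), 2097 TPM in Cbfb(het) 9 and 2.05 TPM in Cbfb(het) 1.

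The other Sprr2 genes did not all follow the Sprr2a sum. Sprr2d, Sprr2h and Sprr2i were highest in Cbfb(wt) 1, at 807, 342 and 254 TPM. Sprr2b was highest in Cbfb(het) 9 at 203 TPM, and Sprr2e and Sprr2f in Cbfb(het) 11 at 169 and 151 TPM. Sprr2k was the exception among all 55: its 2 highest values, 32.5 and 28.3 TPM, were in Cbfb(het) 10 and 14, and it reached 12.6 TPM in Cbfb(het) 11 and 5.98 TPM or less elsewhere. Sprr4 reached 176 TPM in Cbfb(het) 11 and 175 TPM in Cbfb(het) 7, but was listed at 0 in Cbfb(het) 1, 10, 12 and 14 and in Cbfb(wt) 2. Sprr3, a family member of esophagus and other moist squamous epithelia, reached 3.27 TPM at most, in Cbfb(het) 13.

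The late cornified envelope genes, Lce1 and Lce3, encode small proteins added to the envelope in the outermost living cells. Lce1a1 led the Lce1 genes with 302 TPM in Cbfb(het) 11, followed by Lce1f with 251 TPM in Cbfb(het) 9. Cbfb(het) 11 also held the highest level of Lce1d (215 TPM), Lce1a2 (171 TPM), Lce1b (146 TPM), Lce1e (118 TPM) and Lce1c (111 TPM). The same tumor was highest for Lce1g, Lce1i, Lce1k, Lce1h, Lce1l and Lce1j, at 99.1 down to 59.5 TPM. The Lce1 sum was 1700 TPM in Cbfb(het) 11, 1160 TPM in Cbfb(het) 9, 871 TPM in Cbfb(wt) 1, 776 TPM in Cbfb(het) 3 and 215 TPM in Cbfb(homo). The order for the 6 Lce3 genes was different: their sum was highest in Cbfb(wt) 1 (1491 TPM), then Cbfb(het) 9 (1240 TPM), Cbfb(het) 11 (758 TPM) and Cbfb(het) 3 (645 TPM), and 95.2 TPM in Cbfb(homo). Lce3c led them with 362 TPM in Cbfb(wt) 1, where Lce3f was at 345 TPM, Lce3d at 292 TPM and Lce3e at 172 TPM. Lce3b and Lce3a were instead highest in Cbfb(het) 9, at 231 and 146 TPM. Lce3c to Lce3f share 35.7% to 49.3% of their windows with other genes, so their split is less firm than their sum. Lce1m, at the far end of the Lce cluster, was highest in Cbfb(het) 3, at 35.4 TPM.

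**Figure D3:**
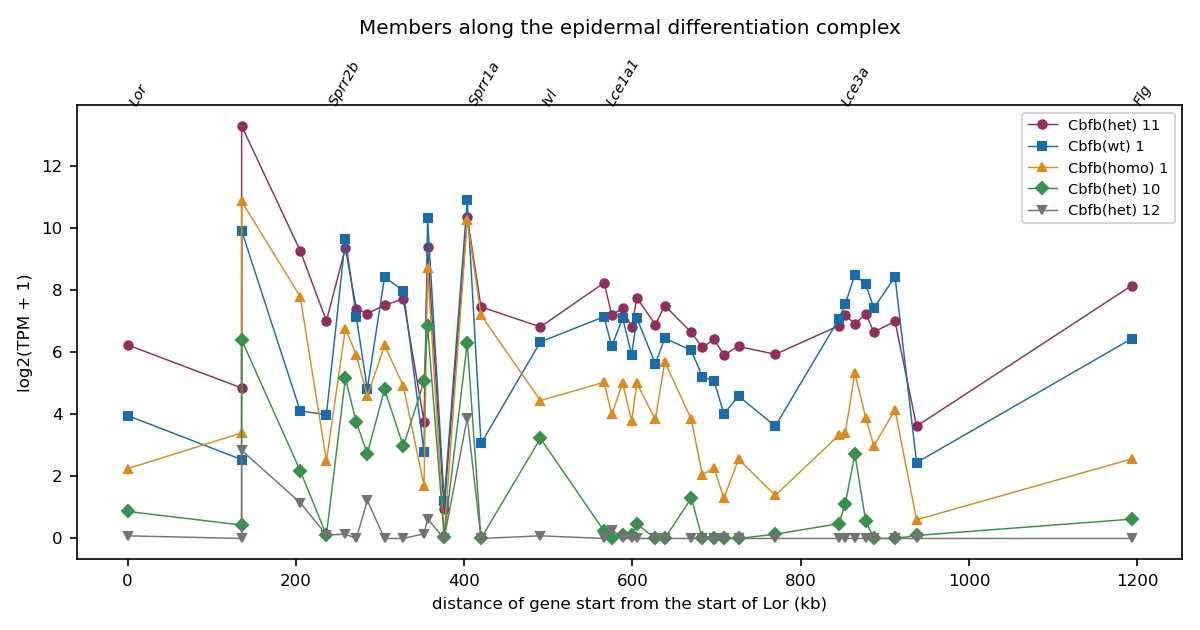
Level, as log2(TPM + 1), of the 37 members in the epidermal differentiation complex against distance from the start of Lor (kb), in 5 tumors. Cbfb(het) 11 lies highest at most genes, Cbfb(wt) 1 above it at the Lce3 genes, and Cbfb(het) 10 near 0 across most Lce genes but not across Sprr2d to Sprr1a, Sprr3 aside.

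Cbfb(het) 10 and 14 held early genes without most of the late ones. Their Krt6a levels were 1978 and 2048 TPM and their Krt16 levels 953 and 950 TPM, both close to the median of the Cbfb(het) tumors. Of the spinous genes, Krtdap (679 and 694 TPM, median 687) and Calml3 (303 and 292 TPM, median 264) were near or above it. All other spinous genes were below their Cbfb(het) medians in both tumors. Krt10 was at 24.5 and 23.1 TPM (median 55.4) and Sbsn at 125 and 140 TPM (median 425). Krt1 was at 1.94 and 2.05 TPM (median 15.5) and Dsc1 at 0.27 and 0.35 TPM (median 19.2). Among cornified genes, Klk7 was at 2.69 and 2.46 TPM and Flg at 0.54 and 0.76 TPM. In both tumors 26 members were under 1 TPM, 25 of them cornified, including 17 of the 20 Lce genes. Early genes made up 69.9% and 70.4% of their member TPM and cornified genes 7.97% and 7.64%. The remaining cornified signal was mostly Sprr1a (78.2 and 74.3 TPM), Sprr1b (114 and 115 TPM), the Sprr2a sum (87.4 and 91.9 TPM), Sprr2d (34.9 and 32 TPM), Sprr2k and Sprr2h. Of the 14 members with an AP-1 match in their promoter window, 3 were under 1 TPM in both tumors. Of the 31 with a window but no match, 21 were. This split was looked at after the values were seen. The matched genes are largely neighbors of 1 family, and the 31 without a match include 13 Lce1 and 6 Lce3 genes. Motif and gene family cannot be told apart here.

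Some other cell type markers also stood apart in these 2 tumors. In Cbfb(het) 10 and 14 the 6 fibroblast markers summed to 20699 and 20798 TPM, against 112 to 15598 TPM in the other tumors. The 7 adipocyte markers summed to 1094 and 1070 TPM there, of which Fabp4 alone was 1084 and 1059 TPM. Lep was also highest in these 2 tumors, at 9.16 and 9.31 TPM. The other adipocyte markers were highest in Cbfb(het) 11, with Cidec at 62.3 TPM against 0.32 and 0.36 TPM in Cbfb(het) 10 and 14. Krt8 and Krt18, keratins of luminal cells, were at 14.3 and 13.9 TPM in Cbfb(het) 10 and 16.2 and 14.6 TPM in Cbfb(het) 14. The basal keratin Krt5 was high in both, at 3516 and 3603 TPM, as was Trp63, the basal transcription factor, at 132 and 131 TPM. None of these marker genes was at 0 in all tumors, and their part in the pattern was not tested. These are the 2 nearly alike libraries.

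Cbfb(het) 1 and 12 lacked most of the program. In each, 41 of 55 members were under 1 TPM, and 36 were so in both. Cbfb(het) 1 kept Sprr1b at 66.1 TPM, Sprr1a at 32.8 TPM, Sbsn at 23.7 TPM and Krt6a at 20.4 TPM. Cdsn was at 14.4 TPM there and Krt16 at 13.3 TPM. In Cbfb(het) 12 the highest members were Krt6a at 21.1 TPM, Sprr1a at 13.8 TPM and Sbsn at 12 TPM. Fibroblast markers summed to 3161 TPM and 15598 TPM in these tumors and leukocyte markers to 300 and 507 TPM, where the median Cbfb(het) tumor had 1052 and 95.3 TPM. In Cbfb(het) 4, the next lowest in its member share (0.0557%), the fibroblast and leukocyte sums were 352 and 56.5 TPM. In Cbfb(wt) 2 (0.171%) they were 7658 and 540 TPM. The part of these cells was not tested.

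The genotype comparison asks whether these genes differ with the Cbfb label. No member did so beyond the spread between tumors. With edgeR's quasi-likelihood test on 18475 genes, 0 genes passed a Benjamini-Hochberg adjusted p of 0.05 between Cbfb(het) and Cbfb(wt) (0% of all genes), and all 55 members passed the filter on low counts with 0 called. At an unadjusted p under 0.05, 0 of 55 members stood against 623 of all genes (3.37%). For 0 of 55 members were the TPM values of the 2 labels without overlap, against 32 of all genes (0.173%). Log2 fold changes of the members, Cbfb(het) minus Cbfb(wt), ran from -1.31 to 1.52 with SE from 0.915 to 2.13, so differences of several fold could not be told from 0 in this design.

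**Figure D4:**
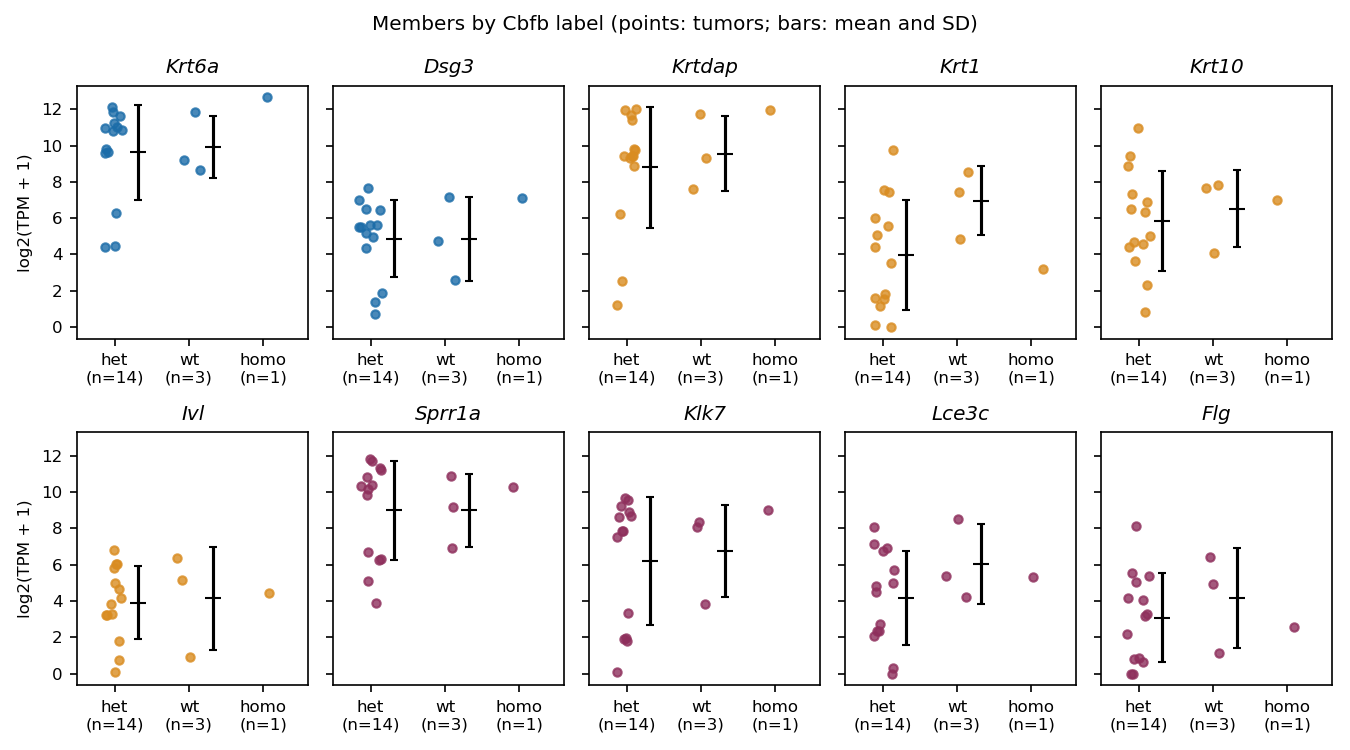
Levels of 10 members, as log2(TPM + 1), in each tumor by Cbfb label, with bars for mean and SD where a label has several tumors. In every panel the points of Cbfb(het) and Cbfb(wt) overlap.

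By role, the fitted log2 fold changes with SE were 0.28 ± 1.11 for Krt6a, 0.52 ± 1.31 for Krt16 and 0.06 ± 1.11 for Dsg3. Among spinous genes they were -0.88 ± 1.71 for Krt1, 0.90 ± 1.69 for Krt10, -0.24 ± 1.24 for Ivl, 0.39 ± 0.92 for Tgm1 and 1.01 ± 1.09 for Sbsn. None of these exceeded its SE. For cornified genes they were 0.71 ± 1.76 for Lor, -0.35 ± 1.71 for Flg, 0.74 ± 1.66 for Klk7, -0.16 ± 1.53 for Casp14, 0.84 ± 1.33 for Sprr1a and 0.80 ± 1.29 for Sprr3. Sprr1b had the smallest unadjusted p of the members, with -1.15 ± 1.07 (edgeR p = 0.300, adjusted p = 0.999). The fit compares mean counts, in which a few high tumors can weigh heavily. On the log2(TPM + 1) scale Krt1 was 3.97 ± 3.05 in Cbfb(het) (SD, n = 14) and 6.95 ± 1.90 in Cbfb(wt) (SD, n = 3). That gap is wider than the fitted value, and why the 2 differ was not tested.

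The median log2 fold change was 0.06 over the 5 early, 0.28 over the 9 spinous and 0.07 over the 41 cornified genes, against 0.03 over all genes tested. Over the 55 members the median was 0.09, with 32 positive and 23 negative. It was 1.60 without Cbfb(wt) 1, -0.43 without Cbfb(wt) 2 and -0.11 without Cbfb(wt) 3, and -0.37 and -0.19 without Cbfb(het) 11 and 9; without Cbfb(het) 3 it was near 0, and 0.20 with Cbfb(het) 10 and 14 averaged. With limma on log2(TPM + 1) or log2(TPM + 0.1) it was -0.69 and -1.21, where the median of all genes was -0.12 and -0.16. The family medians were 0.61 for Sprr, 0.08 for Lce1 and -1.04 for Lce3. Lce3 had 6 of 6 genes below 0 in that fit and 6 of 6 above 0 (median 1.07) without Cbfb(wt) 1, the tumor in which the Lce3 sum was highest. The Sprr and Lce1 medians were 1.55 and 1.74 without that tumor and -0.39 and -0.47 without Cbfb(het) 11.

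**Figure D5:**
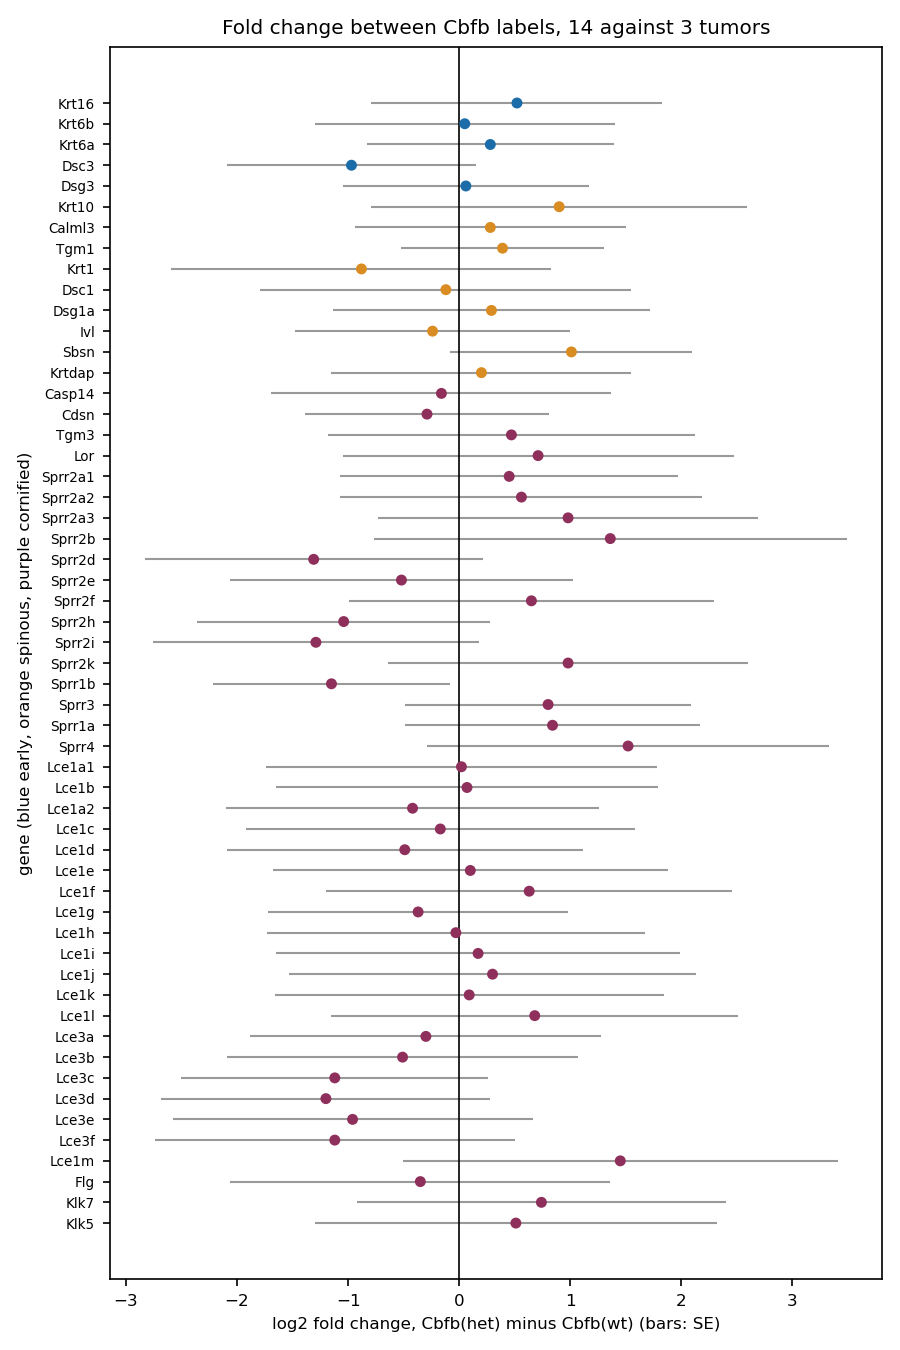
Log2 fold change, Cbfb(het) minus Cbfb(wt), of each of the 55 members with its SE (bars), colored by stage. Points lie between -1.31 and 1.52, and the bars of all members but Sprr1b cross 0.

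The neighboring pathways behaved likewise, with 0 genes called in each list. Of 20 regulators, 12 had positive and 8 negative log2 fold changes (median 0.06). Trp63 was at 36.9 TPM in the median Cbfb(het) tumor, 108, 11.5 and 25.0 TPM in Cbfb(wt) and 118 TPM in Cbfb(homo). Klf4 and Grhl3, transcription factors of late differentiation, reached 196 TPM in Cbfb(het) 13 and 39.6 TPM in Cbfb(het) 11. Zfp750, a p63 target that drives late genes, reached 71.3 TPM in Cbfb(het) 7. In Cbfb(het) 10 and 14, Trp63 was among the 3 highest, Grhl3 was at 8.06 and 8.86 TPM, and Zfp750 at 11.5 and 10.9 TPM.

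Among 15 basal keratinocyte genes 15 had a positive log2 fold change (median 0.54), none past the threshold. Of all 18475 genes tested, 9833 were positive. Krt5 and Krt14 were highest in the Cbfb(homo) tumor, at 5352 and 10567 TPM, where the basal sum was 26209 TPM against 578 to 14587 TPM in the other tumors. Of 21 further cornified envelope genes 19 were positive (median 0.50). Lgals7, a galectin of stratified epithelium, reached 3497 TPM in Cbfb(het) 11. Cst6, a cysteine protease inhibitor of the cornified layer, reached 10952 TPM in Cbfb(homo) and was at 14.6 and 16 TPM in Cbfb(het) 10 and 14. Of 12 barrier lipid genes 7 were positive (median 0.10), with Abhd5, a lipase cofactor, at up to 396 TPM in Cbfb(wt) 3 and Elovl4, which makes very long fatty acids, at up to 184 TPM in Cbfb(het) 7. Of 11 alarmin genes 10 were positive (median 0.43). Lcn2, an iron-sequestering secreted protein, reached 16068 TPM in Cbfb(het) 4. S100a8 and S100a9 reached 5126 and 5123 TPM in Cbfb(het) 9, but are also neutrophil genes. They belong to the 10 neutrophil markers and made up nearly all of that list's sum there, 10393 TPM. The highest of the other neutrophil markers in that tumor was Retnlg at 65.2 TPM. The part of neutrophils in these levels was not tested. With limma on log2(TPM + 0.1) the medians were -0.09 for regulators, -0.04 for the further envelope genes, -0.21 for barrier lipid genes and -0.06 for alarmins, and without Cbfb(wt) 2 they were -0.07, -0.02, -0.29 and -0.15; the regulator median was also -0.03 without Cbfb(wt) 3, and the barrier lipid median -0.12 and -0.01 without Cbfb(het) 7 and 9. On log2(TPM + 1) the regulator and barrier lipid medians were -0.04 and -0.17. The basal median was 0.31 with limma on log2(TPM + 0.1) and 0.12 without Cbfb(wt) 2.

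The moist squamous list had 1 of 10 genes with an unadjusted p under 0.05, against 623 of all 18475 genes (3.37%). This was Krt76, at 1.66 TPM in Cbfb(wt) 2 and 0.32 TPM or less elsewhere. Its log2 fold change was -2.41 ± 1.03 (edgeR p = 0.0314, adjusted p = 0.999). Among cell type markers, 6 of 7 adipocyte genes (median 5.16) and 1 of 6 leukocyte genes (median -0.47) were under that unadjusted threshold, with 0 called. Of the 10 moist squamous genes, 8 were positive (median 1.5, and 0.43 with limma on log2(TPM + 1)). Hair follicle cells also make keratinocyte transcripts, and 17 of the 17 hair follicle genes measured were positive (median 1.51). Of all 18475 genes, 9833 were positive. The hair follicle median was 0.81 without Cbfb(het) 9, 7.58 without Cbfb(wt) 3 and 0.97 with limma on log2(TPM + 1). With limma on log2(TPM + 0.1), 14 of 17 were positive. The hair follicle genes summed to 3329 TPM in Cbfb(het) 9, 1641 TPM in Cbfb(het) 7 and 1576 TPM in Cbfb(het) 3. Their sum was 816 to 828 TPM in Cbfb(het) 2 and 6 and Cbfb(wt) 3. It was only 70.4, 84.6 and 105 TPM in Cbfb(het) 11, Cbfb(wt) 1 and Cbfb(homo), which also had high squamous sums. Krt27 and Krt73, inner root sheath keratins, were at 532 and 598 TPM in Cbfb(het) 9 and at 4.48 and 2.42 TPM in Cbfb(het) 11. The 9 sebaceous markers summed to 54.3 TPM in Cbfb(wt) 2 and to 2911 TPM in Cbfb(het) 7, where Krt79 was at 2829 TPM. Krt79 is also in the moist squamous list. Most of the other sebaceous markers were highest in Cbfb(het) 5, where the sum was 1144 TPM. Of the 9, 8 were positive (median 1.17). Without Cbfb(het) 5, 5 of 8 tested were positive (median 0.35), and with limma on log2(TPM + 0.1) the median was 0.32. The part of these cells in the squamous levels of any tumor was not tested.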

How the data were processed

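RNA of 18 tumors was analysed from 1 deposited gene table per tumor. Per the file headers, the authors' values are RSEM expected counts, estimates in which reads fitting several genes are shared out and which are not normalized, and TPM, scaled by gene length and to a fixed total. STAR 2.7.0f, RSEM 1.3.1 and mm10 are listed in the submitters' processing notes; how strand was set in counting and which annotation was used is not given there. Per the labels' protocols, RNA came from fresh tumors (Trizol) and the library kit was TruSeq Stranded mRNA. The deposited FPKM column was not used. Gene positions come from GENCODE M21 (GRCm38), which holds all 55450 gene IDs.

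Expected counts were rounded (15.6% to 17% of the values above 0 in a tumor were not whole, within 0.005). The 14 Cbfb(het) and 3 Cbfb(wt) tumors were compared with edgeR 4.0.16 in R 4.3.3: filterByExpr, TMM factors, the robust quasi-likelihood F-test, Benjamini-Hochberg adjustment over 18475 genes and a threshold of 0.05. The SE is the log2 fold change divided by the square root of F. The Cbfb(homo) tumor entered no test. The series design gives each tumor its own animal, and p-values measure the spread between tumors on that basis; Cbfb(het) 10 and 14 had nearly alike libraries, and whether they are separate in origin was not tested, so the Cbfb(het) group may hold 1 independent tumor fewer. The common biological coefficient of variation was 0.691. Alternatives were DESeq2 1.42.0, RLE factors, no filter, all 18 tumors, limma 3.58.1 on log2(TPM + 1) and log2(TPM + 0.1), Cbfb(het) 10 and 14 averaged, and leaving out each tumor.

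Members, stages, other lists and alternatives were chosen with earlier results of these data known. Every listed member was named, as was each family gene that reached 10 TPM; fold changes were printed for 14 preset members and the one with the smallest p. From other lists, names were limited to preset regulators, keratins and alarmins, the 2 genes highest in TPM and the gene with the smallest p. Krt18 was named outside these limits, and not all genes within them are printed. Tex11, Tmem147os and genes named only as sharing sequence were named after the values were seen. Upstream sequences and motif counts come from RefSeq windows on GRCm38.p6; the motifs were chosen with the values known.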

Additional observations from a re-analysis of the deposited data

How the results depend on the processing

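The number of members called was 0 under every alternative run, and the smallest adjusted p of a member ranged from 0.868 to 1. The number of genes called was 1 with all 18 tumors in the fit and 1 with no filter on low counts, in both cases Tex11, which is not a member. It was 0 under DESeq2 and limma; at an unadjusted p under 0.05 DESeq2 gave 932 genes and limma 596 and 569, none a member.

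None of the 55 members passed the threshold, and 26 of them had the opposite sign with limma on log2(TPM + 0.1), 25 with limma on log2(TPM + 1), 3 with DESeq2 and 1 with RLE factors. Among the 15 members whose fold changes are printed, the values of opposite sign on log2(TPM + 0.1) were Krt6a -0.31, Krt16 -0.57, Dsg3 -0.05, Krt10 -0.76, Lor -1.46, Klk7 -0.81 and Sprr1a -0.03, and on log2(TPM + 1) Krt6a -0.30, Krt16 -0.51, Krt10 -0.67, Lor -0.81, Klk7 -0.55 and Sprr1a -0.02; the cause was not tested. Leaving out each tumor gave ranges of -0.18 to 1.89 for Krt6a, -0.49 to 1.91 for Dsg3, -1.88 to 0.01 for Krt1, -0.82 to 0.80 for Ivl, -0.12 to 1.51 for Tgm1, -0.03 to 1.88 for Lor, -1.55 to 0.63 for Flg, -0.90 to 1.20 for Casp14 and -1.63 to 0.94 for Sprr1b. Stage medians ranged from -0.42 to 1.89 (early), -0.30 to 1.48 (spinous) and -0.49 to 1.60 (cornified), lowest without Cbfb(wt) 2 and highest without Cbfb(wt) 1. Of the 990 pairs of member and tumor, 780 were at 1 TPM or more, 885 at 0.1 TPM or more and 568 at 10 TPM or more. No paired analysis was possible because the labels pair no tumors. Depth was not varied.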

Other observations

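Sprr2g, left out as a polymorphic pseudogene and named after its values were seen, stood at 162 TPM in Cbfb(het) 11, 134 TPM in Cbfb(wt) 1, 89.9 TPM in Cbfb(het) 9 and 59.9 TPM in Cbfb(homo), with 0 in Cbfb(het) 12. Sprr2j-ps, which the annotation types as protein-coding despite its name, reached 28.1 TPM in Cbfb(het) 11, and Sprr2c-ps was listed at 0 in all 18 tumors. Krt77, a suprabasal keratin related to Krt1, was at 106 TPM in Cbfb(het) 3 and at 6.33 TPM in Cbfb(homo), and at 1.01 TPM or less in the other 16 tumors.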
